A study of Mus musculus with 3 samples.

Results

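The clustered protocadherin genes of the mouse lie on chromosome 18 in 3 neighboring groups, alpha, beta and gamma. Members were all genes of the GENCODE annotation on mm9 with a symbol beginning Pcdha, Pcdhb or Pcdhg and ending in a number or in a letter with a number. These were 25 of the annotated genes, of which 22 were beta genes, and 24 were protein-coding. The annotation merges most alpha transcripts into Pcdha11 (ENSMUSG00000007440.7) beside a separate Pcdha3, and all gamma transcripts into Pcdhgc5 (ENSMUSG00000023036.7), so that only 2 alpha genes and 1 gamma gene are listed. Binding was therefore described for each annotated first exon, which is the unit of promoter choice in these genes. There were 41 of these among 33005 protein-coding first exons of the genome, with 10 alpha, 22 beta and 9 gamma. Pcdhb8 counts with 2 first exons, which start at 37514726 and 37514925 and do not overlap, although their promoter intervals do. RefSeq lists 58 genes in the same families, with 14 alpha, 22 beta and 22 gamma genes, so that several alpha and gamma first exons have no annotated start on mm9. First exons within the merged genes were named after RefSeq where their spacing matched exactly, and by the transcript otherwise.

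Mouse ES cells with the CTCFL_V5_GFP transgene under Tet-on control, kept with LIF on a gelatin coating, were used for ChIP-sequencing of CTCFL. In the ES_CTCFL_V5_DOX sample the transgene was switched on with doxycycline for 3 days, GFP-expressing cells were sorted and the V5 antibody was used. The control, ES_CTCFL_V5_NODOX, was the same transgenic cells without doxycycline and without sorting, precipitated with the same antibody, and induction and sorting therefore cannot be told apart. The ES_CTCF sample, precipitated with a CTCF antibody, was not analysed here. Its label names the transgenic cells, whereas the methods of the study name normal ES cells. Since ES cells do not normally express CTCFL, the list describes where the tagged protein from the transgene was found, and not binding of the endogenous protein in testis. There was 1 library per condition and the peak list holds intervals only, so that neither a spread between replicates nor the read depth behind a peak is known and no test between conditions was possible.

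Clustered protocadherins are cell-surface proteins of the cadherin superfamily that mediate homophilic recognition between neurons. Each alpha or gamma isoform begins with its own variable first exon, which has its own promoter and is spliced to constant exons shared by the whole group, whereas beta genes consist of a single variable exon and have no constant exons. A neuron expresses a small, largely random set of these promoters, while the C-type genes at the end of the alpha and gamma groups are expressed more broadly. CTCF and cohesin are known to bind a conserved element in most of these promoters and, in alpha genes, a further site within the first exon, and to bring them to distant enhancers. CTCFL is the germ cell paralog of CTCF and has a very similar zinc finger domain.

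The main sequence element examined below was a stretch of the CTCF and CTCFL consensus. It was searched on both strands as a core, AGGNGGC, and as a longer form that includes the core, AGGNGGCGC, where N is any base. The tetramer CGCT, which marks the conserved element of clustered protocadherin promoters, was searched as well. It does not occur within the other motifs but can overlap the last letters of the longer form. A match only states that these letters are present. Sequences of the members themselves are not printed.

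The 3 groups differed in how many CTCFL peaks they held, although the counts were small. The cluster, taken from the first to the last member base, spans 912 kb of mm9 (chromosome 18, 37089939 to 38001527) and contained 6 of the 7436 peaks of the list. A 7th peak lay in the 100 kb downstream of it and no peak lay in the 100 kb upstream. The alpha group (37089939 to 37347311) held 4 peaks, or 15.5 per Mb. The beta group (37424652 to 37681073) has nearly the same length and held 1 peak, or 3.90 per Mb. The gamma group (37833989 to 38001527) held no peak in 168 kb. The remaining peak of the cluster lay between the alpha and beta groups. When only peaks of the median width or wider were kept, 2 were left in the cluster and flanks. These were the widest peak of the alpha group and the peak of the downstream flank. For comparison, the whole list has 2.80 peaks per Mb and chromosome 18 has 2.52, while the cluster has 6.58. Peaks are unevenly distributed in the genome, and 14.6% of 2903 windows of the length of the cluster held at least 6 peaks, with a median of 1 and a maximum of 21.

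**Figure D1:**
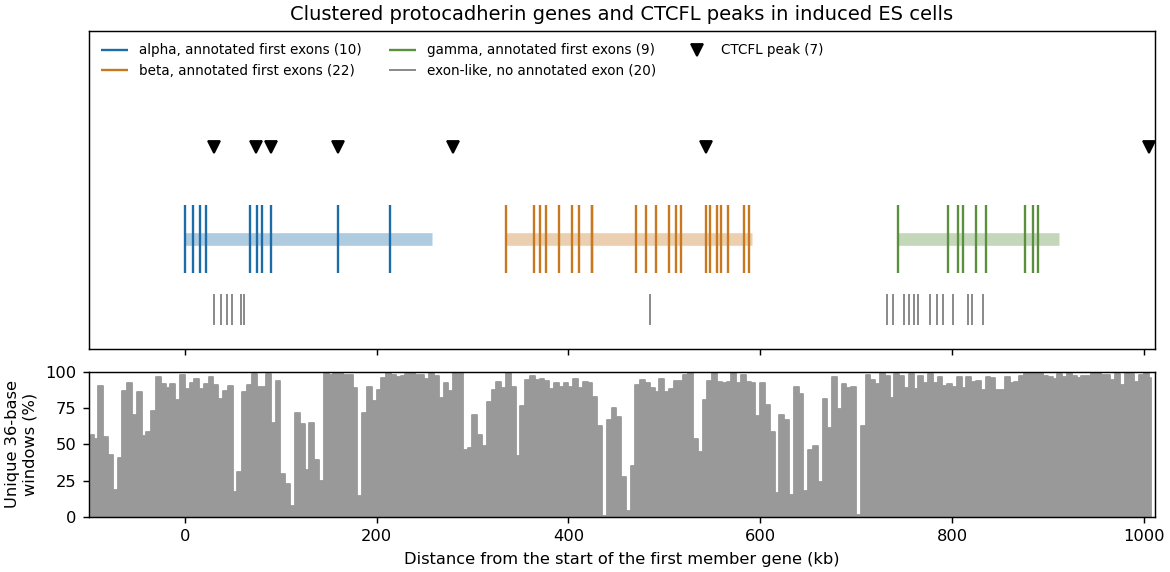
Map of the clustered protocadherin genes with 100 kb on either side. The horizontal axis gives the distance from the start of the first member gene in kb, colored bars and ticks the groups and their annotated first exons, gray ticks exon-like stretches without an annotated exon, and triangles the CTCFL peaks. The lower panel gives the share of 36-base windows that occur once in the genome, in bins of 5 kb. Of the 7 peaks, 4 lie in the alpha group and none in the gamma group.

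First exons of the alpha group carried 3 of the 4 promoter peaks. A promoter peak was counted when the midpoint of a peak lay from 2 kb before to 1 kb after the start of a first exon. This was so for 4 of 41 first exons (9.76%, 95% Wilson interval from 3.86 to 22.5%), against a background of 9.03% of all protein-coding first exons. The members as a whole therefore stood near the background. Among alpha first exons 3 of 10 had a promoter peak (30.0%, from 10.8 to 60.3%), namely Pcdha10, Pcdha12 and the C-type Pcdhac1. Only Pcdhb15 did among 22 beta first exons (4.55%, from 0.807 to 21.8%). None of the 9 gamma first exons had one, which allows a share of up to 29.9%. When only peaks of the median width or wider were kept, Pcdhac1 was the only first exon left with a promoter peak. The intervals of the groups overlap, cover counting error only, and treat related first exons as independent. Counted by gene symbol, 2 of 24 protein-coding members had a promoter peak (8.33%, from 2.32 to 25.8%), against 11.2% of all protein-coding genes. The pseudogene Pcdhb20 (37663926 to 37667476) had its nearest peak 30745 bp away.

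The peak at Pcdhac1 was the widest of the cluster. It spanned 37249333 to 37249927 (595 bp, rank 1556 of the list by width), and its midpoint was 160 bp before the start of the first exon at 37249790. It contained 2 matches to the core motif and 1 exact match to the longer motif, which lay 186 bp before the start and 26 bp from the midpoint of the peak. Unlike the other peaks of the alpha group it lay in GC-rich sequence (59.5% GC).

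The peak at Pcdhb15 was the only one in the beta group. It spanned 37632991 to 37633371 (381 bp, rank 5137), and its midpoint was 19 bp before the start of the exon at 37633200. An exact match to the longer motif lay 90 bp before the start and 71 bp from the midpoint. Among the 6 peaks of the cluster only those at Pcdhac1 and Pcdhb15 contained an exact match to the longer motif (33.3%, from 9.68 to 70.0%), against 22.2% of all peaks. The same 2 peaks were the only ones with the core motif, which 60.9% of all peaks contained. With 1 mismatch to the longer motif allowed the shares were 66.7% and 63.7%. Each share of the whole list lies within the interval of the cluster peaks.

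The peaks at Pcdha10 and Pcdha12 were the narrowest of the cluster. The Pcdha10 peak spanned 37164664 to 37164900 (237 bp, rank 7206), in an intron of the merged gene, with its midpoint 192 bp before the start at 37164974. Its best stretch differed from the longer motif at 2 positions. The Pcdha12 peak spanned 37180235 to 37180457 (223 bp, rank 7316), and its midpoint was not upstream but inside the first exon, 462 bp after the start at 37179884. There it was also 13 bp before the annotated start of Gm10545, a gene on the opposite strand. A match to the longer motif with 1 mismatch lay 3 bp from the midpoint.

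The first peak of the cluster (37120365 to 37120684, 320 bp, rank 6195) lay 8104 bp after the start of transcript Pcdha11-208 and had no annotated first exon nearby. A search of the cluster with the annotated first exons as queries (blastn) found this peak within a stretch from 37120118 to 37122423 that is 79.0% identical to the first exon of Pcdha12. RefSeq lists Pcdha4 to Pcdha8 in the interval between Pcdha3 and Pcdha9, where the annotation on mm9 has a single start. In this peak 80.0% of the 36-base windows were unique in the genome, whereas all windows were unique in the other 5 peaks of the cluster.

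The peak between the groups (37369914 to 37370281, 368 bp, rank 5388) was intergenic, 54555 bp before the start of Pcdhb1, the first beta gene. It contained neither the core motif nor CGCT, and its best stretch differed from the longer motif at 3 positions. The peak in the downstream flank (38095117 to 38095584, 468 bp, rank 3433) had its midpoint 220 bp before a start of Diap1, a formin gene of the actin cytoskeleton, and 116150 bp from Pcdhgc5, the nearest member.

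**Figure D2:**
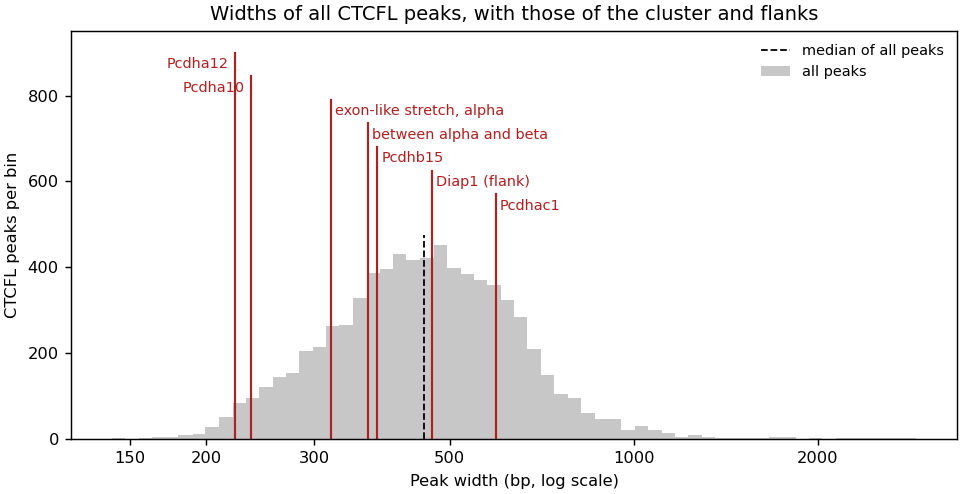
Histogram of the widths of all 7436 CTCFL peaks (horizontal axis, bp on a log scale, vertical axis, peaks per bin). Red lines give the 7 peaks of the cluster and its flanks and the dashed line the median of 454 bp. The peaks at Pcdha12 and Pcdha10 lie at 223 and 237 bp and the peak at Pcdhac1 at 595 bp.

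Since no peak heights are given, width was the only measure of size. Peaks of the cluster had a median width of 344 bp, with a range from 223 to 595 bp, and 5 of 6 were narrower than the median peak of the list (454 bp). They were also less GC-rich, with a median of 45.3% against 52.6% of all peaks. The ratio of observed to expected CpG was higher, with a median of 0.570 against 0.344. All 36-base windows were unique in 83.3% of the cluster peaks and in 82.0% of all peaks.

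Peaks were absent from long stretches with many promoters. The longest, of 461745 bp, ran from the Pcdhb15 peak to the Diap1 peak. It contained 15 annotated first exons, including all annotated ones of the gamma group. The blastn search found 11 further exon-like stretches without an annotated exon in the gamma group, and 2 just before it. None of these held a peak. A stretch of 262709 bp between the intergenic peak and Pcdhb15 contained 15 beta first exons. Of the 7415 gaps between neighboring peaks of the list 18.7% were at least as long as the longest one of the cluster, and the median gap was 113 kb. Gaps of this length are thus not unusual in the list. This compares length only, and the number of first exons within other gaps was not compared.

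The distance from a first exon to the nearest peak differed accordingly. It had a median of 7.68 kb in the alpha group (0.160 to 54.0 kb), 53.3 kb in the beta group (0.0190 to 131 kb) and 180 kb in the gamma group (116 to 210 kb), so that the gamma distances overlapped with those of beta but not with those of alpha. The median over all protein-coding first exons was 61.6 kb. At the ends of the groups, the first alpha exon Pcdha1 was 30585 bp and the last one, transcript Pcdha11-202, 53993 bp from a peak. The last beta gene, Pcdhb22, was 44826 bp from a peak and the first annotated gamma exon, Pcdhga3, 200808 bp. The C-type exons Pcdhgc3, Pcdhgc4 and Pcdhgc5 were 129286, 120617 and 116150 bp from a peak, in contrast to Pcdhac1. Pcdhac2 could not be matched to a transcript by name. However, Pcdha11-202, the only annotated alpha first exon after Pcdhac1, had no promoter peak either. The contrast therefore holds for Pcdhac1 alone and not for alpha C-type exons as a set.

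**Figure D3:**
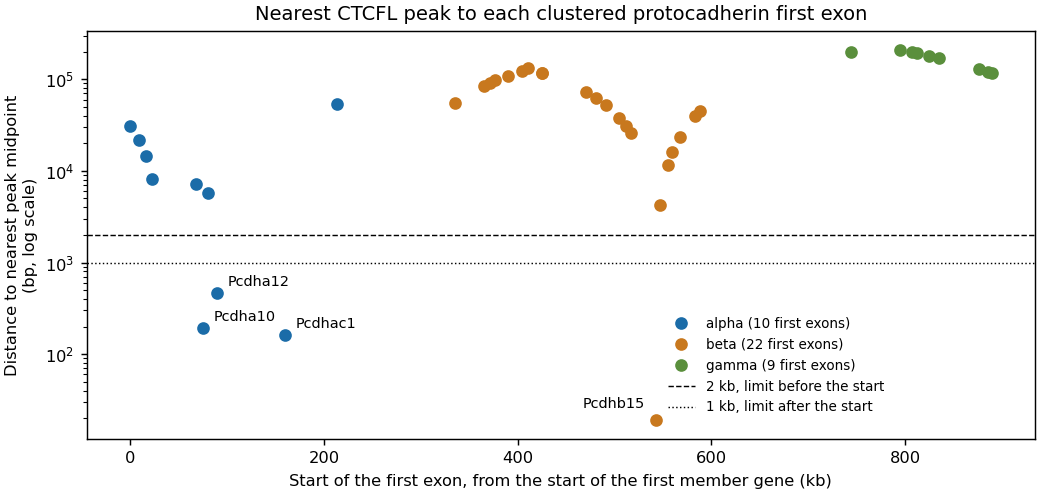
Distance in bp (log scale) from the start of each of the 41 first exons to the nearest peak midpoint, plotted against the position of the start in kb from the start of the first member gene, with alpha in blue, beta in orange and gamma in green. Lines mark the limits of 2 kb and 1 kb that were used for a promoter peak before and after a start. Only Pcdha10, Pcdha12, Pcdhac1 and Pcdhb15 lie below the lines, and all gamma first exons lie above 100 kb.

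Sequence around the first exons was next compared with the peaks, from 250 bp before to 50 bp after each start. CGCT was present in 40 of 41 members (97.6%, from 87.4 to 99.6%), the exception being Pcdhga12, and in 64.7% of all protein-coding first exons. The core motif was present in 6 of 41 (14.6%, from 6.88 to 28.4%), against 30.5% of all. By group these were 3 of 10 alpha, 3 of 22 beta and none of 9 gamma first exons. The longer motif was found at Pcdhac1, Pcdhb15 and Pcdhb16 (7.32%, from 2.52 to 19.4%), against 3.51% of all. Of these, Pcdhac1 and Pcdhb15 had a peak. Pcdhb16 had its match 32 bp before the start, and its nearest peak, that of Pcdhb15, was 4241 bp away.

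The beta promoters shared a closely related element. With 1 mismatch allowed, 20 of 22 beta first exons had a match to the longer motif (90.9%, from 72.2 to 97.5%), against 6 of 10 alpha, 2 of 9 gamma and 38.3% of all protein-coding first exons. The search windows of the 2 first exons of Pcdhb8 overlap and share a match. With each site counted once there were 21 beta matches in 19 of 21 genes. Of these, 20 were on the strand of transcription, and 18 lay from 120 to 20 bp before a start. The mismatch was at the first letter in 17 of the 19 beta matches that had one. The remaining letters, GGNGGCGC, were therefore searched by themselves. They were present in 20 of 22 beta first exons, all but Pcdhb1 and Pcdhb13, but in only 1 of 10 alpha first exons (Pcdhac1), in none of 9 gamma first exons and in 12.6% of all. Among the 20 beta first exons with these letters 1 had a promoter peak (5%). Of the 4159 protein-coding first exons with them 844 had one (20.3%). The 5% rests on 1 first exon, and Pcdhb8 is counted with both of its first exons. No interval was computed for the 20 alone. For all 22 beta first exons, of which 1 had a peak, the interval from 0.807 to 21.8% reaches just above 20.3%. That set includes Pcdhb1 and Pcdhb13, which lack these letters, so the 2 shares are not of like sets. These counts are too few to set the beta promoters apart. At Pcdhb15 and Pcdhb16 the first letter is matched as well. These searches were chosen after the positions of the matches had been seen.

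The longer motif also occurred within beta exons. Of its 19 exact matches in the cluster 13 lay in the beta group, all on the strand of transcription, and 11 of these were in a member exon, mostly 2024 to 2231 bp after a start, as in Pcdhb4 (2208 bp), Pcdhb7 (2231 bp) and Pcdhb12 (2185 bp). None of the exonic matches was in a peak. In the whole genome 1792 of 17896 matches (10%) lay in a peak, compared with 2 of 19 in the cluster. The beta exons resemble each other, and all 36-base windows over the match were unique for 5 of the 13. These 5 include the matches before the starts of Pcdhb15 and Pcdhb16. Among the exonic beta matches only those in Pcdhb4, Pcdhb7 and Pcdhb12 had all windows unique, and the others had 71.4 to 96.4%. How far this limited the detection of peaks was not tested.

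Most aligned alpha exon-like stretches had a related match at nearly the same place. Of 14 exon-like stretches in the alpha group, 8 annotated and 6 not, 13 included the part that corresponds to positions 300 to 600 of the Pcdha12 first exon. In 11 of these a match with 1 mismatch lay 465 to 469 bp from the start, always on the strand of transcription, and none was exact. It was missing in transcript Pcdha11-209 and in Pcdha11. Counted instead from annotated starts, over the same interval of 300 to 600 bp and at any place in it, 6 of 10 alpha first exons had such a match (60.0%, from 31.3 to 83.2%), against 27.7% of all protein-coding first exons. A peak was present at 2 of the 13 stretches, the unannotated stretch of the first peak and Pcdha12. In both the peak was centered near the match, since aligned to the Pcdha12 exon the midpoints were 432 and 462 bp from its start. The stretches with a peak had 82.3 and 80.8% unique 36-base windows in this interval, and those without had 35 to 92.1%. The part of read mapping in this difference was not tested.

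**Figure D4:**
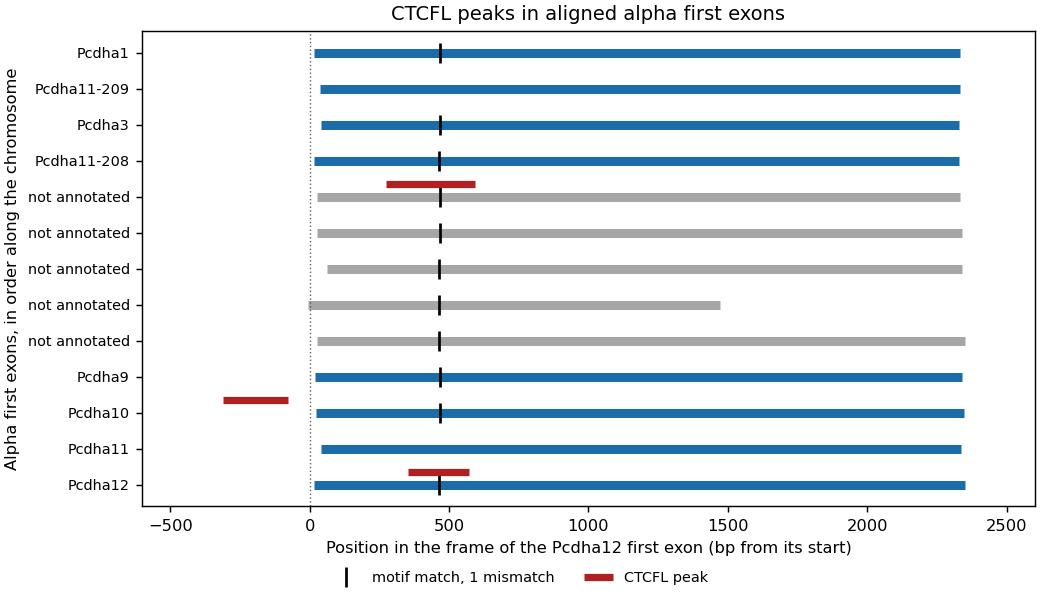
The 13 alpha exon-like stretches that include the exon start, in order along the chromosome and aligned to the start of the Pcdha12 first exon (horizontal axis, bp). Blue bars are annotated first exons, gray bars are not annotated, black marks are matches to the longer motif with 1 mismatch between 300 and 600 bp, and red bars are CTCFL peaks. The peaks of an unannotated stretch and of Pcdha12 cover the match at 467 and 465 bp, and the Pcdha10 peak lies before the start.

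The members had a lower median GC content than all protein-coding first exons, whereas the CpG ratio of the beta and gamma groups was near that of all. The median GC content near the start was 41.5% in members (30.6 to 72.4%) and 54.2% over all protein-coding first exons, with medians of 44.4, 40.2 and 46.8% in the alpha, beta and gamma groups. The ratio of observed to expected CpG was 0.708 in alpha, 0.434 in beta and 0.429 in gamma first exons, against 0.440 over all. In the genome peaks were more frequent with a higher ratio. A promoter peak was found at 2.87% of 15525 first exons with a ratio under 0.4, at 9.77% of 4657 from 0.4 to 0.6 and at 16.2% of 12823 at 0.6 or more. Among members these classes had 0 of 13, 2 of 13 and 2 of 15 first exons with a peak. Within the alpha group GC content did not separate those with a peak from those without, since Pcdhac1 had 65.4% and Pcdha11-202, without a peak, 72.4%.

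**Figure D5:**
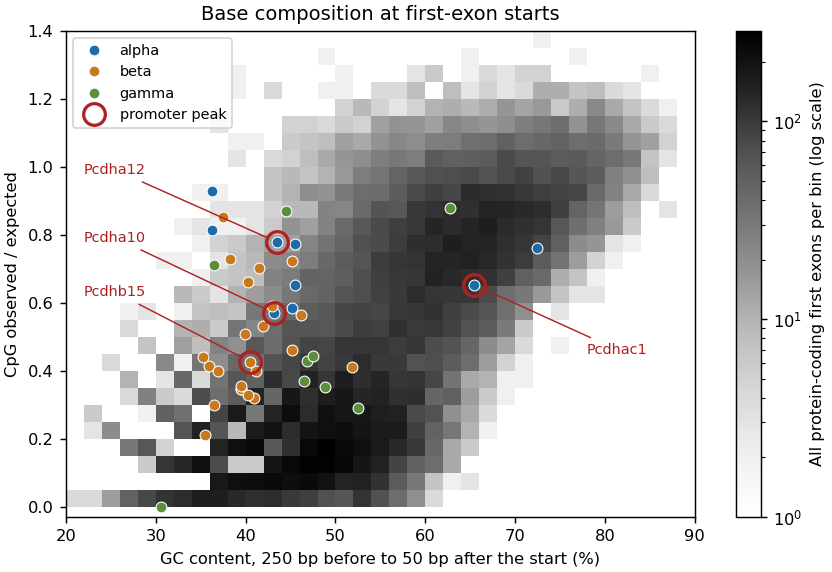
GC content (%) against the ratio of observed to expected CpG, from 250 bp before to 50 bp after the start, for the 41 member first exons (colored points) over the density of all protein-coding first exons (gray squares, log scale). Red circles mark members with a promoter peak. Most members lie at lower GC content than the bulk of promoters with a similar CpG ratio, and Pcdhac1 lies at 65.4% GC.

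Since reads from repeated sequence can be lost in mapping, the share of unique 36-base windows was measured around each start (250 bp on either side). All windows were unique at 31 of 41 members, among them 21 of 22 beta and 8 of 9 gamma first exons. The alpha group was the least unique, with a median of 90% and a minimum of 70.6% at Pcdha10, and 5 of 10 were under 90%. Over whole groups 79.1% of windows were unique in alpha, 82.0% in beta and 94.5% in gamma. Around the starts, however, beta first exons had a minimum of 98.5% and gamma first exons one of 86.5%. The part of read mapping in the peak counts of the groups was not tested.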

How the data were processed

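The authors precipitated chromatin with the V5 antibody, sequenced 36-bp reads, mapped these to the mouse genome (ELAND), and in their comparative analysis with BOWTIE to mm9, with unique reads kept and MACS peaks at an fdr under 0.05. Which of these produced the deposited list is not given in the sources used here. The study reports fewer CTCFL sites than the 7436 peaks of this list. Which peaks of the list are among those sites, including the peaks of the cluster, is not known. The deposited file holds the start and end of each peak in bp on mm9 for the induced cells, with no height or depth. Starts were read as 0-based and printed with 1 added. 0 columns of unmapped samples were present.

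Peak midpoints were compared with the GENCODE annotation on mm9 in Python 3.11.15 (pandas 2.3.3, pysam 0.24.0). RefSeq (GRCm38.p6) served only for names: 34 first exons were spaced from Pcdhac1 exactly as there, including 19 beta exons, all with the same symbol. Exon-like stretches were found with blastn 2.17.0 (E-value 1e-20, 500 bp or longer). Shares carry 95% Wilson intervals. Named were members with a promoter peak, the first and last of each group and C-type genes, and list genes with a promoter peak. Other features named were chosen after their values were seen. Members, lists and motifs were chosen with earlier results of these data known. The counting steps were tested on simulated data. Alternatives were a wider or no flank, any overlap, a narrower promoter, all transcripts, wide or unique peaks only, and other motif settings.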

Additional observations from a re-analysis of the deposited data

How the results depend on the processing

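Of 19 alternatives over 5 counts and shares, 15 stayed within 1.5 times the main count or inside the interval of the main share, among them no flank, a doubled flank of 200 kb (9 peaks), any overlap, a narrower promoter, all transcripts, and peaks with at least 90% unique windows. Keeping only peaks of the median width or wider left 2 peaks in the cluster and flanks, 1 gene and 1 first exon with a promoter peak. Over the whole promoter interval 63.4% of member first exons had the core motif (from 48.1 to 76.4%), against 84.7% of all protein-coding first exons. The alternative of 1 mismatch in peaks (66.7%, against 33.3% with the core, and 63.7% against 60.9% in all peaks) and the search for exon-like stretches were chosen after seeing the data. No paired analysis was possible because every condition is a single library. Peak heights and depth are unknown, so that a missing peak was only not detected at this depth.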

Other observations

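Other protocadherin genes and genes for proteins that act on the cluster were examined in lists. Of 14 non-clustered protocadherins, which are single genes outside the cluster, 1 had a promoter peak (7.14%, 95% Wilson interval from 1.27 to 31.5%). This was Pcdh7, with a peak on chromosome 5 from 58110712 to 58111321 whose midpoint was 672 bp after the start. Pcdh8 had its nearest peak 1490 bp after the start, just outside the interval used. The share of all protein-coding genes with a promoter peak was 11.2%.

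Of 14 genes for proteins known to act on the clustered protocadherins or their chromatin, 4 had a promoter peak (28.6%, from 11.7 to 54.6%). The share over all protein-coding genes was 11.2%, and the list was chosen with earlier results of these data known. The 4 genes were Ctcf itself (chromosome 8, 108160400 to 108160926, 184 bp after the start) and 3 genes for subunits of cohesin, the ring complex that forms chromatin loops. The midpoints were 449 bp before the start of Smc3, 42 bp before that of Stag1 and 144 bp before that of Stag2. The cohesin genes Rad21 and Smc1a had none. Of the 6 other protein-coding genes with a start in the cluster or its flanks, Diap1 and Gm10545 had a promoter peak (33.3%, from 9.68 to 70.0%). The peak of Gm10545 is that of Pcdha12, and the peak of Diap1 is that of the downstream flank, both described above.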
